A study of Mus musculus with 10 samples.

Results

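These measurements describe the wild-type baseline of mouse embryonic stem cells (ESC), cultured cells from the early embryo that can renew themselves and form every lineage of the body. The cells were of strain C57BL/6 with wild type genotype, and all cultures of the series received leukemia inhibitory factor (LIF) and fetal calf serum on mitomycin C-treated fibroblast feeders or gelatin. Total RNA was sequenced. Of 10 samples in the series, 4 were labelled WT, but replicates 2 and 3 named the same sequencing library, so that 3 libraries were described (replicate 1, replicate 2-3 and replicate 4). No source used here states that they came from separate cultures, and SD values therefore describe the spread between libraries, which may be technical.

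Levels were given for 43031 features. A feature was an annotated 3′ untranslated region (UTR) extended by 2 kb downstream, and its unit was TPM, a level per feature length scaled to the same total in every library. The description was restricted to the 15615 features (36.3%) that shared no base with another feature of the same strand, and these were named by gene annotation of the mm10 genome build. They held 50.5% to 50.8% of the TPM of each library. A feature "clear" of other genes, a set of 11967 (76.6%), also met no feature of the opposite strand and no exon of another gene. This stricter set was chosen after values had been seen.

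Pluripotency is held by a network of transcription factors, among them OCT4 (Pou5f1), SOX2, NANOG and KLF4, which promote each other's genes and keep lineage genes low. LIF signals through its receptor subunits LIFR and gp130 (Il6st) to STAT3, which sustains the network in culture. The 3′UTR follows the coding sequence and ends where the transcript is cleaved and polyadenylated, usually shortly after a hexamer such as AATAAA.

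The 3′ ends of several of the most abundant transcripts are printed here because they show what an end looked like in these data. Each is the last 30 bases of the annotated transcript (GENCODE M21, mm10), 5′ to 3′, with an AATAAA or ATTAAA hexamer in capitals where one was present.
Hdgf (chr3:87916103-87916132, plus strand): ggaaAATAAAgccgctgattactatcctga
Eif4b (chr15:102097144-102097173, plus strand): tctccaAATAAAtccagtctttaaagttga
Vdac1 (chr11:52389368-52389397, plus strand): ataaaacttgAATAAAatactgaaacctca
Fgf4 (chr7:144865214-144865243, plus strand): gagagatATTAAAatgacaaacgtgtctgc
Lin28a (chr4:134003330-134003359, minus strand): agacttattggtactccagagttggtactg
Tfcp2l1, upstream end (chr1:118637737-118637766, plus strand): tgaaatacctaaaatgttggttggtcttct
Tfcp2l1, downstream end (chr1:118685139-118685168, plus strand): atgcaAATAAAaccatttgtactaaaccca

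A minority of 3′ ends dominated the WT cells. At 1 TPM or more in every library stood 8470 features (54.2%), and 5205 (33.3%) reached 10 TPM in every library. Under 1 TPM in every library lay 6489 (41.6%), and 2568 (16.4%) were listed at 0 in all 3 libraries. The 1295 features with a mean of 100 TPM or more held 65.6% of the TPM. The 100 most abundant features held 18.9%, and the 687 highest features (4.40%) together held 50%. The annotated UTR was longer at higher levels, with a median of 256 bases for features at 0, 710 bases at 1 to 10 TPM and 977 bases at 100 TPM and over. TPM is a level per feature length and every feature held 2 kb of extension, so UTR length itself enters the level. The part of this in the difference was not tested.

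The most abundant feature was named by mt-Nd4, a mitochondrial subunit of complex I, at 6183, 6551 and 6256 TPM (6330 ± 195, SD, n = 3 libraries). Its downstream extension covered 1801 bases of mt-Nd5 on the same strand, so the value holds both genes. Eef2, the elongation factor that moves the ribosome along the mRNA, followed at 4356, 4871 and 5061 TPM (4763 ± 365). That feature had an annotated UTR of 1 base, and 1028 bases of its extension lay in exons of Eef2 itself. The processed pseudogene Gm15459 came next at 3839, 4143 and 4041 TPM, and pseudogenes can share reads with the gene they were copied from.

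**Figure D1:**
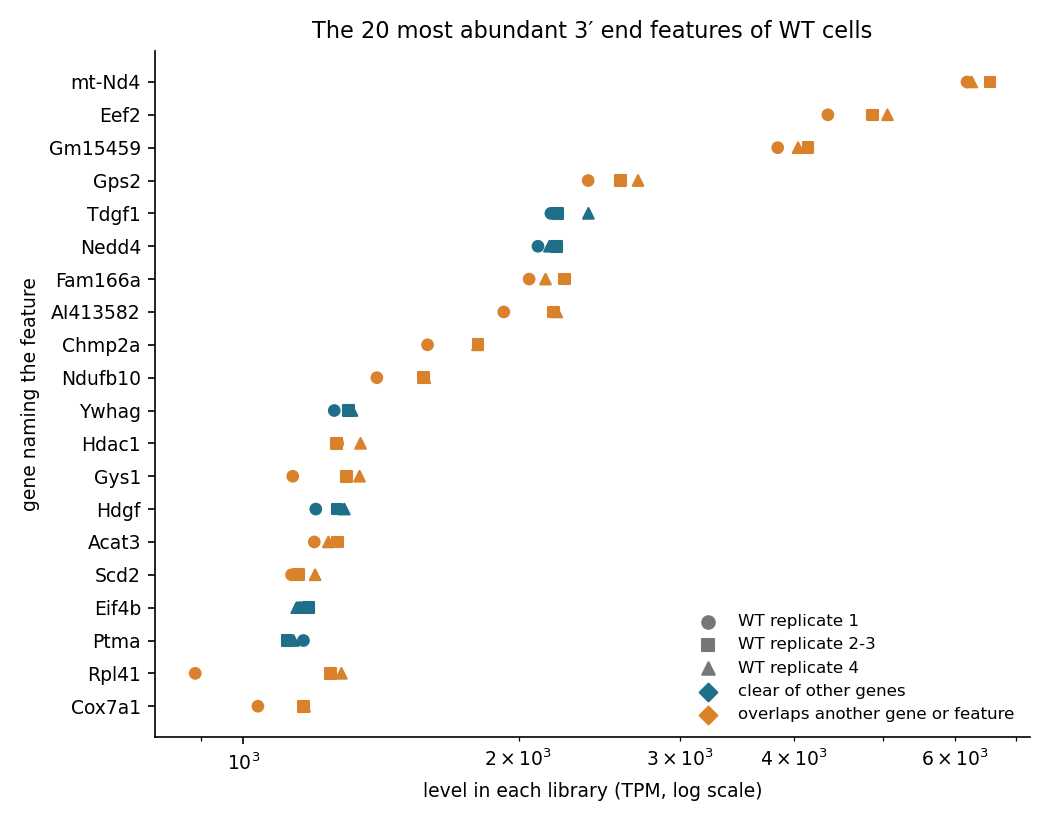
Level in TPM on a log axis of the 20 most abundant features, with 1 symbol shape per WT library. The 6 features in blue are clear of other genes, and the 14 in orange overlap another gene or feature.

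Of the 20 most abundant features, 14 overlapped another gene or feature, 9 of them a feature of the opposite strand. Gps2, a subunit of a corepressor complex, was listed at 2383, 2583 and 2702 TPM and its extension covered 1308 bases of exons of Eif5a, a translation factor transcribed towards it. The feature named by Fam166a averaged 2147 TPM and covered 1907 bases of Tubb4b, a tubulin gene. Chmp2a (1733 TPM) covered 852 bases of Trim28, Ndufb10 (1518 TPM) covered 1672 bases of Rps2, and Acat3 (1234 TPM) covered 1057 bases of Tcp1. The level of such a feature cannot be told apart from that of the gene it covers. AI413582, Hdac1, Gys1, Scd2, Rpl41 and Cox7a1 completed this group, with means between 1123 and 2104 TPM.

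The 6 clear features among the 20 were Tdgf1, Nedd4, Ywhag, Hdgf, Eif4b and Ptma. Tdgf1 (Cripto, a NODAL co-receptor; chr9:110937608-110940703, minus strand) stood at 2169, 2209 and 2384 TPM (2254 ± 114). Nedd4, a ubiquitin ligase (chr9:72747229-72751848, plus strand), stood at 2100, 2199 and 2161 TPM (2153 ± 49.9). All 3 libraries placed both above every other clear feature. Ywhag, a 14-3-3 adaptor protein, averaged 1292 ± 30.4 TPM. Hdgf, a growth factor, averaged 1252 ± 46.3 TPM. Eif4b, an initiation factor, varied little at 1153, 1179 and 1144 TPM (1159 ± 17.9), as did the chromatin protein gene Ptma (1138 ± 23.7). Further down the clear features came the survival gene Mcl1 (1031 ± 36.7 TPM), the glycolytic enzyme Pgam1 (982 ± 59.9 TPM), the mitochondrial channel Vdac1 (874 ± 23.2 TPM) and Actb (716 ± 37.6 TPM).

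Most pluripotency genes stood high in every library. Of 36 listed genes, 25 had a feature alone on its strand, and 24 of these were at 10 TPM or more in every library (96.0% at 1 TPM or more, beside 54.2% of all such features). Their median was 155 TPM, beside 2.12 TPM over all features. Lin28a, an RNA-binding protein that blocks let-7 maturation, stood at 753, 760 and 705 TPM (739 ± 30.2). The feature of its paralog Lin28b was the exception at 0.279, 0.196 and 0.289 TPM, but it held 0.320% of the gene, whose features summed to 84.3, 83.1 and 71.2 TPM. The markers with a feature alone fitted the label of the cells.

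Among transcription factors with a feature alone, Tfcp2l1 led by TPM per feature at 750, 733 and 740 TPM (741 ± 8.33). Its annotated UTR was 7734 bases long, beside 1085 bases for Sox2 and 988 bases for Klf4. Every feature held 2 kb of extension, so UTR length enters this order, and its part was not tested. Sox2 stood at 485, 460 and 473 TPM (473 ± 12.8). Klf4 stood at 444, 399 and 427 TPM (423 ± 22.9). The libraries differed by less than 1.5 times for each of the 3 factors. Klf5 stood at 357 ± 23.7 TPM and Klf2 at 155 ± 5.27 TPM, in features of unlike make-up. The Klf5 feature had an annotated UTR of 80 bases, and 1627 bases of its extension lay in exons of Klf5 itself. For Klf2 these were 735 and 2 bases, so the 2 levels do not rank the genes. Nr0b1 and Prdm14 followed at 58.9 ± 3.72 and 28.6 ± 1.12 TPM. The single feature of Esrrb alone on its strand stood at 25.5, 21.1 and 21.1 TPM, while the sum over the gene was 30.7, 1176 and 29.8 TPM. Replicate 2-3 was thus far above the others in the ends of Esrrb that share bases. The features of Sox2 and Tfcp2l1 covered exons of the small annotated genes Gm27611 and Gm23497.

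Signalling genes spanned a wide range. Fgf4, a ligand secreted by ESC that acts through ERK, stood at 671, 689 and 708 TPM (689 ± 18.2). The NODAL pathway was represented by the ligand Nodal (106 ± 3.25 TPM) and its inhibitors Lefty2 (196 ± 17.4 TPM) and Lefty1 (87.0 ± 4.89 TPM), besides the co-receptor Tdgf1. Of the LIF receptor, Il6st stood at 140 ± 4.82 TPM. Lifr stood at 16.3 ± 1.06 TPM in a feature that held 22.8% of its gene, which summed to 72.1, 73.9 and 68.8 TPM. Socs3, the feedback inhibitor of this pathway, stood at 361, 392 and 390 TPM (381 ± 17.7).

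For the other 11 pluripotency genes every feature shared bases with another, and only the sum over the features of a gene could be given. All 11 were at 1 TPM or more in every library, and 8 were at 10 TPM or more in every library. Tet1, a 5-methylcytosine oxidase, summed to 667, 672 and 595 TPM. Pou5f1, which encodes OCT4, summed to 168, 180 and 484 TPM, with replicate 4 the highest. Nanog summed to 664 and 676 TPM in replicates 1 and 2-3 but to 3.10 TPM in replicate 4. Sall4 summed to 286 and 270 TPM in replicates 1 and 4 but to 4.72 TPM in replicate 2-3. Tcl1 was high only in replicate 1 (121 TPM, beside 6.84 and 14.7 TPM).

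**Figure D2:**
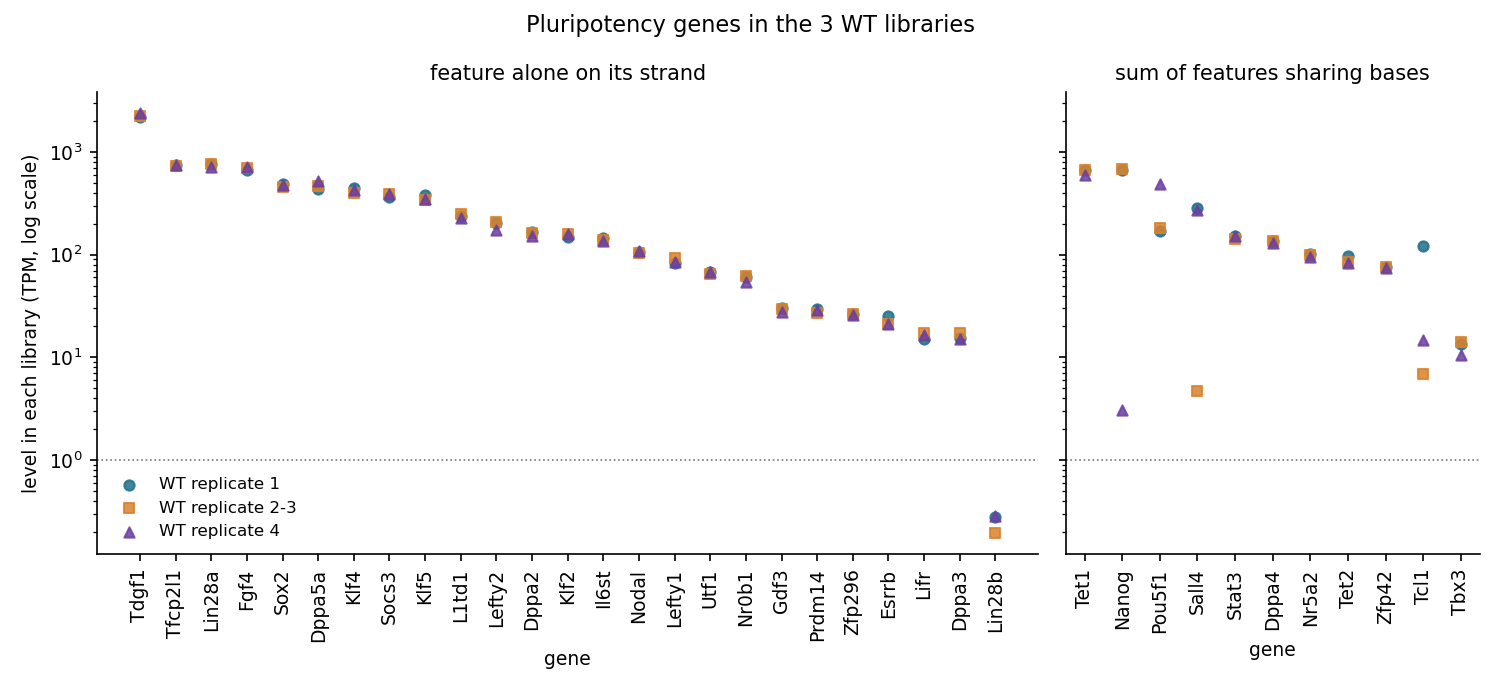
Level in TPM on a log axis of pluripotency genes in the 3 WT libraries, for 25 genes with a feature alone on its strand and 11 genes with the sum of features sharing bases. The libraries lie close together on the left, while Nanog, Sall4 and Tcl1 on the right are spread by more than 10-fold.

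Such drops were far more frequent where features shared bases. Of 3688 genes with no feature alone and a summed mean of at least 10 TPM, 779 (21.1%) differed by over 2-fold between libraries and 333 by over 10-fold. Of 5372 features alone on their strand at the same mean level, 77 (1.43%) differed by over 2-fold. The genes of the groups are different ones, and what produced the drops was not tested.

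Most listed genes of neighbouring cell states were at 1 TPM or more. Over all features alone on their strand the share at 1 TPM or more in every library was 54.2%. That share counts every such feature, while a list counts only the most abundant feature of each gene. Of 9 formative genes with a feature alone, which mark the step from naive to primed pluripotency, 7 (77.8%) were at 1 TPM or more in every library, led among features alone by Sox4 (58.0 ± 3.38 TPM), Zic5 (42.5 ± 1.28 TPM) and Pou3f1 (18.1 ± 0.511 TPM). Dnmt3a, a DNA methyltransferase, was at 0.148, 0.0860 and 0.253 TPM in the feature alone, but its features summed to 149, 135 and 139 TPM. Dnmt3b, with no feature alone, summed to 237, 238 and 228 TPM. Fgf5, the classical primed marker, summed over 2 features to 0.103, 0.454 and 0.575 TPM. In the list of the 2-cell-like state, 8 of 10 genes (80.0%) reached 1 TPM in every library, with Zscan4b (15.2, 17.4 and 18.6 TPM) and Zscan4a (13.8, 12.9 and 13.7 TPM) highest. The Zscan4 genes and the Usp17l and Tcstv genes of this list are near-identical copies, so the split of reads between them is uncertain.

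Germ layer genes covered a wide range of levels, many of them under 1 TPM. Of 58 neural, surface ectoderm, mesoderm and endoderm genes with a feature alone, 34 (58.6%) were under 1 TPM in every library, beside 41.6% of all features, and 19 were at 1 TPM or more in every library. Their median was 0.348 TPM. By sums over all features of a gene, 39 of 80 were under 1 TPM in every library and 31 were at 1 TPM or more in every library. None of the 58 reached 100 TPM in every library, but Tbx6, a mesoderm gene whose features share bases, summed to 466, 319 and 316 TPM. Which other genes the Tbx6 features cover was not examined. The features alone of Pax3, Dcx, Trp63, Hba-x, Alb, Cer1 and Fgb were listed at 0 in all 3 libraries. A listed 0 is not proof of absence, because Hsp90ab1, a chaperone used by every cell, was also listed at 0 in all 3 libraries. The Hsp90ab1 feature overlaps features of Slc35b2 on the opposite strand, of which 1 was listed at 5786, 6279 and 6296 TPM. The features of Pax3, Dcx, Trp63 and Hba-x were clear and had no such overlap.

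In the neural list, 7 of 15 genes were at 1 TPM or more in every library and 6 (40%) were under 1 TPM, a share near that of all features (41.6%). Olig2, a factor of oligodendrocyte and motor neuron progenitors, stood apart at 86.1, 96.0 and 86.1 TPM (89.4 ± 5.73). Tubb3, the neuronal tubulin, followed at 28.4 ± 1.97 TPM, though its feature covered part of Def8. Sox1 (8.43 ± 0.879 TPM) and Neurod1 (7.76 ± 0.935 TPM) were lower still. The feature alone of Nes, a neural progenitor filament gene, straddled the limit at 1.45, 1.56 and 0.873 TPM, but all its features summed to 6.30, 6.01 and 5.91 TPM. Emx2 was under 1 TPM in every library. Map2, a neuronal microtubule protein, was under 1 TPM in the feature alone on its strand, but its features summed to 22.8, 20.8 and 19.3 TPM.

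In the mesoderm list, 14 of 22 genes (63.6%) were under 1 TPM in every library, beside 41.6% of all features alone on their strand. Among the features alone of this list, Mesp1, a factor of nascent mesoderm, was highest at 20.5, 22.2 and 23 TPM (21.9 ± 1.25). The Mesp1 feature overlapped Gm44705. By gene, the T-box factor Tbx6, with no feature alone, summed to a far higher level (466, 319 and 316 TPM). Overlap of its features with other genes was not examined, so the level may not be that of Tbx6 alone. T (brachyury), the primitive streak factor, was measured at 1.82, 2.41 and 2.29 TPM (2.17 ± 0.310). Mixl1 and Hand1 lay at a like level (2.72 ± 0.539 and 2.99 ± 0.241 TPM). The muscle factors Myod1, Myog and Myf5 and the endothelial genes Kdr and Cdh5 were under 1 TPM in every library.

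In the endoderm list, 8 of 13 genes (61.5%) were under 1 TPM in every library, beside 41.6% of all features alone on their strand. Cdx1, a caudal homeobox factor, was the highest at 60.0, 62.9 and 68.9 TPM (63.9 ± 4.53). Hhex followed at 22, 22.6 and 22.2 TPM (22.3 ± 0.337). Foxa1 stood at 1.55 ± 0.213 TPM, and the liver genes Alb and Fgb were at 0. In the surface ectoderm list, Dlx3 (8.01 ± 0.697 TPM) and Krt10 (7.23 ± 0.501 TPM) were the 2 of 8 genes at 1 TPM or more in every library.

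**Figure D3:**
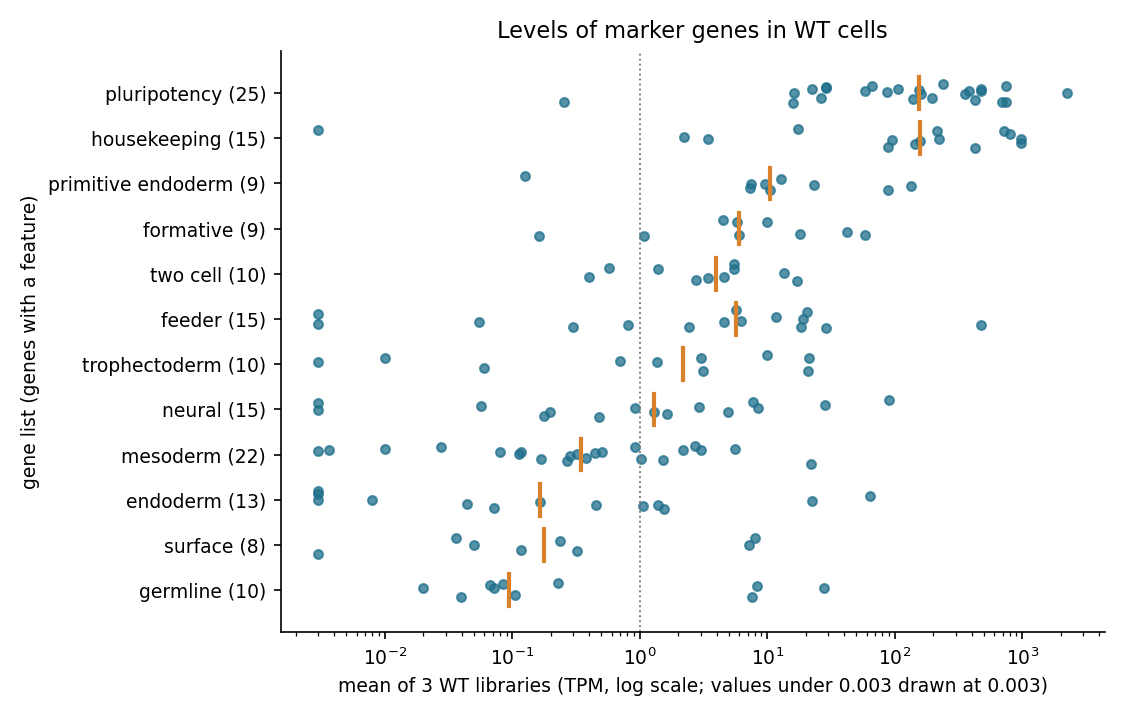
Mean of the 3 WT libraries in TPM on a log axis for the genes of 12 lists with a feature alone on their strand. Each gene is 1 point and the list median is a bar. Values near 0 are drawn at the left edge, and the dotted line marks 1 TPM. Medians run from 157 TPM for housekeeping and 155 TPM for pluripotency genes to 0.0950 TPM for germline genes.

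Extraembryonic genes were described in 2 lists. In the primitive endoderm list, 8 of 9 genes (88.9%) were at 1 TPM or more in every library, beside 54.2% of all features. Among features alone, the basement membrane genes Col4a1 (131, 131 and 143 TPM) and Col4a2 (78.9, 90.1 and 94.6 TPM) were highest. Sparc, another matrix gene, had no feature alone and summed to 556, 546 and 3.28 TPM, with replicate 4 far below the others. Gata6, a factor that specifies primitive endoderm, stood at 12.8, 12.3 and 13.6 TPM (12.9 ± 0.686), which made 88.3% of its gene. The feature of Gata4 was at 0.113, 0.263 and 0 TPM, but the features of the gene summed to 32.6, 32.0 and 36.4 TPM. In the trophectoderm list, 5 of 10 genes (50%) were at 1 TPM or more in every library, a share near that of all features. Krt8 (21.2 ± 1.59 TPM) and Eomes (21 ± 0.868 TPM) had the highest features alone. The Eomes feature held 41.3% of its gene, which summed to 52.4, 50.4 and 49.8 TPM, and the transcription factor gene Tfap2c, with no feature alone, summed to 106, 97.6 and 106 TPM. Cdx2, which specifies trophectoderm, was at 0.946, 0.674 and 0.496 TPM, and Elf5 and Tpbpa were at or near 0. In bulk RNA a few cells with a high level and many cells with a low level cannot be told apart.

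In the germline list, 7 of 10 genes with a feature alone (70%) were under 1 TPM in every library, beside 41.6% of all features alone on their strand. By sums over all features of a gene, 11 of 20 were under 1 TPM in every library and 9 were at 1 TPM or more. Of the 10 genes with no feature alone, 6 summed to 1 TPM or more in every library and 4 to less. Dmc1 (25.2, 24.7 and 22.4 TPM) and Ddx4 (22.9, 19.3 and 16.1 TPM) were the highest of these. Sohlh2, a germ cell transcription factor, had the highest feature alone at 27, 28.8 and 27.6 TPM (27.8 ± 0.916). Dazl, an RNA-binding protein of germ cells, stood at 7.16, 8.42 and 9.47 TPM (8.35 ± 1.16), and its features summed to 39.3, 37.6 and 35.5 TPM, above the sum of Sohlh2. Mael, of the piRNA pathway, stood at 7.60 ± 0.306 TPM. The spermatid genes Tnp1 and Prm1 were under 1 TPM in every library.

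Fibroblast genes were measured because the cells could have been grown on feeders. Of 20 genes, 15 had a feature alone. Of these, 10 (66.7%) were at 1 TPM or more in every library, beside 54.2% of all features alone on their strand. Their summed level was 569, 590 and 614 TPM in replicates 1, 2-3 and 4, of which the fibronectin gene Fn1 gave 450, 476 and 491 TPM. All features of Fn1 summed to 1464, 1456 and 1629 TPM. The fibroblast collagens Col1a2 (18.1, 16.7 and 20.0 TPM) and Col1a1 (10.2, 11.4 and 13.4 TPM) were present, and Col3a1 was at 0.630, 1.06 and 0.757 TPM. Lum and Fap were listed at 0 in every library, and so was the sum over the features of Dcn. Of the 5 fibroblast genes with no feature alone, 4 summed to 1 TPM or more in every library. Lox was the highest of them at 37.9, 5.97 and 38.5 TPM, with replicate 2-3 far below the others. The part of feeder RNA in the levels of the lineage lists was not tested.

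Gene families differed widely in the share of their features that was present. Of 51 cytosolic ribosomal protein features, 49 (96.1%) were at 1 TPM or more in every library, as were 62 of 69 features of translation factors (89.9%), 61 of 70 of the respiratory chain (87.1%) and 211 of 260 of zinc finger genes (81.2%). Over all features alone on their strand the share was 54.2%. No feature of 194 olfactory receptors or of 51 defensins reached 1 TPM in every library, and 156 (80.4%) and 38 (74.5%) of them were listed at 0 throughout. Of 63 cytochrome P450 features 3 were present, led by Cyp51 of cholesterol synthesis (158 ± 4.72 TPM), whose feature overlapped Akap9.

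**Figure D4:**
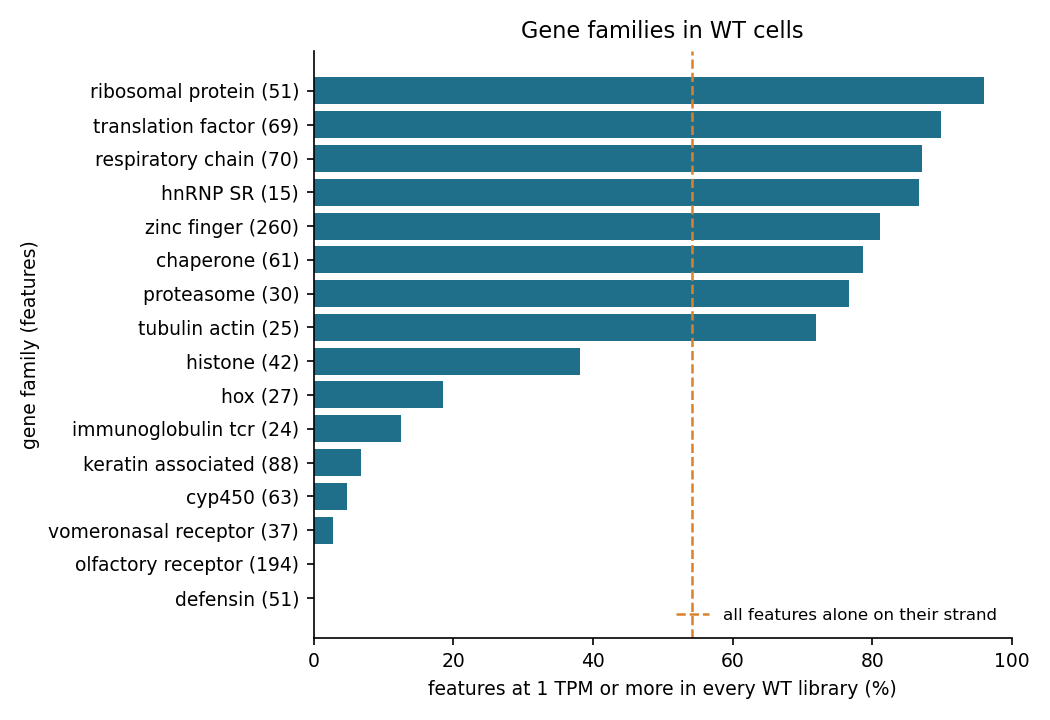
Share of features at 1 TPM or more in every WT library for the families with at least 15 features, whose number stands in parentheses. The dashed line is the share over all features alone on their strand (54.2%), and the bars run from 96.1% for ribosomal proteins to none for olfactory receptors and defensins.

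Translation factors held 3.07% of the TPM, the respiratory chain 1.80%, zinc finger genes 1.54% and ribosomal proteins 0.821%. These shares include features that cover other genes. The highest respiratory chain features, Ndufb10, Cox7a1 and Ndufa4l2 (means of 1518, 1123 and 614 TPM), each overlapped a feature of the opposite strand. Translation factors summed to 15019, 15810 and 15928 TPM, of which the upstream Eef2 feature alone gave 4763 TPM on average. Ribosomal protein genes had an annotated UTR of 89 bases at the median, so most of each feature was extension, and per base of annotated UTR their share was 1.68%. Rpl41 led the family at 886, 1245 and 1280 TPM, with replicate 1 lowest, and its feature covered 614 bases of Zc3h10. Rpl36 followed at 513, 512 and 514 TPM in a feature with an annotated UTR of 33 bases that covered 1191 bases of Lonp1 on the opposite strand. Rpl37 stood at 420, 448 and 445 TPM and covered 482 bases of Gm10250, also on the opposite strand. Only 28 of the 51 ribosomal protein features were clear, with a median of 27.5 TPM.

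Among 27 Hox features, which encode the factors of body axis patterning, 5 (18.5%) were at 1 TPM or more in every library. Hoxc13 was highest at 5.61, 5.23 and 5.54 TPM (5.46 ± 0.201), and Hoxd13 stood at 3.23 ± 0.281 TPM. Both are clear and lie at the 5′ end of their clusters. Of 88 keratin and keratin-associated features 6 were present, Krt8 first. The pattern for immunoglobulin and T cell receptor segments also matched Ighmbp2 and Iglon5, and the 3 features present in that group were theirs. Vmn1r71 was the 1 vomeronasal receptor feature above 1 TPM in every library (15.3, 13.9 and 11.6 TPM), and it overlapped Gm5130.

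The libraries lay close together. Over the 8825 features that averaged 1 TPM or more, Pearson's r between pairs of libraries on the log2 scale (0.1 TPM added) was 0.989 to 0.990, a value across features of the same genes. The median coefficient of variation (CV, SD over mean) was 0.0757. The CV fell with level, from a median of 0.411 at 0.1 to 1 TPM to 0.140 at 1 to 10, 0.0599 at 10 to 100 and 0.0403 at 100 TPM and over. The column names of the 3 libraries begin with different codes, and no label used here states what the codes mean. No library stood apart in general, since replicates 1, 2-3 and 4 were the most distant library for 33.3%, 30.2% and 36.5% of features.

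At a mean of at least 1 TPM, 324 features (3.67%) differed by over 2-fold between the highest and the lowest library. At a mean of at least 10 TPM, 77 of 5372 (1.43%) did. Of these 77, 70 overlapped a feature of the opposite strand, which made 6.64% of the 1054 such features, beside 7 (0.162%) of the 4318 others. The ratio of 62 of the 70 lay between 1.9 and 2.5. Slc6a6, a taurine transporter, was measured at 529, 256 and 265 TPM. Ntn1, a guidance cue, was measured at 235, 508 and 218 TPM. Each of these had 1 library at about 2 times the others, and it was not the same library.

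**Figure D5:**
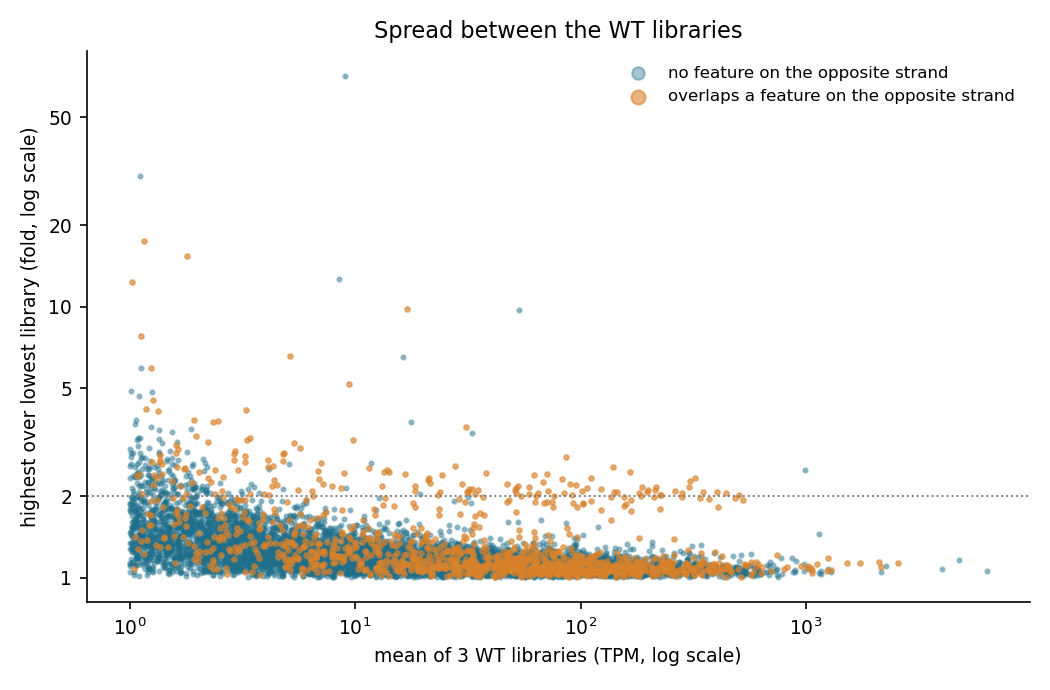
Highest over lowest WT library against the mean in TPM, both on log axes, for features averaging 1 TPM or more with no library at 0. A band of features that overlap one on the opposite strand, in orange, lies near the dotted line at 2-fold across levels.

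Opposite features both reached 10 TPM in 122 pairs. In 21 of these a member differed by over 1.5-fold between libraries, and in 14 both did. In 13 pairs a member differed by over 2-fold, and in 11 of these 13 both members differed by over 1.5-fold. Map2k1, a kinase of the ERK pathway, stood at 501, 465 and 243 TPM and its opposite neighbour Snapc5 at 87.1, 89.0 and 36.8 TPM. Both were low in replicate 4. Of 330 pairs with at least 10 TPM at a member, 1 member held over 99% of the pair in 120 (36.4%) and the other was listed at 0 in 69 (20.9%). No strand setting appears on the StringTie command line of these files, although the study calls its sequencing stranded, and the part of strand assignment in these values was not tested.

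The features with the largest ratio for each library were Naxe for replicate 1, Rtf2 for replicate 2-3 and Ap4m1 for replicate 4. Naxe was listed at 151, 0 and 0 TPM, and it overlaps Gpatch4 on the opposite strand. Rtf2 was measured at 74.5, 8.05 and 77.9 TPM and Ap4m1, which overlaps Taf6, at 35.3, 12 and 3.59 TPM. Rom1 (11.5, 40.3 and 41.1 TPM), Phlda2 (69.5, 178 and 172 TPM) and Pdcd5 (23.1, 9.39 and 9.87 TPM) also set replicate 1 apart. Haghl and Fam129b were highest in replicate 2-3, and Gadd45gip1 and Dnajb13 in replicate 4.

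Of the 7 clear features over 2-fold at this level, 5 began or ended within 200 bases of another feature of their strand. These were Rtf2, Vps18, Chd1, Aggf1 and Palm. Of all clear features at a mean of at least 10 TPM, 31 lay that close to another and 16.1% of them differed by over 2-fold, beside 0.0569% of the 3515 others. The distance was chosen after values had been seen. Vps18, of the endosomal tethering complex, was at 6.19, 37.3 and 5.73 TPM, while 1 of the features lying 132 bases downstream was at 25.8, 2.20 and 27.7 TPM. In this gene the ends were high in opposite libraries, while the other 4 genes showed no common pattern. Chd1, a chromatin remodeler, was at 6.48, 22.4 and 24.3 TPM at an end 97 bases from its neighbour, which stayed at 9.83, 9.43 and 9.63 TPM. Aggf1 was at 19.1, 18.1 and 61.8 TPM, beside an adjoining end at 103, 89.1 and 94.0 TPM. Palm was at 12.4, 20.8 and 25.3 TPM, and 1 of the features 163 bases downstream moved the same way (18.3, 41.9 and 51.3 TPM). The neighbour of Rtf2, 120 bases upstream, was at 17.1, 7.10 and 1.35 TPM.

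The other 2 clear features were Dnajc21 and Lars2. Dnajc21 stood at 17.7, 6.65 and 11 TPM. Lars2, the mitochondrial leucyl-tRNA synthetase, stood at 623, 778 and 1556 TPM, with replicate 4 the highest. It was the most abundant feature to differ by over 2-fold. Among pluripotency genes with a feature alone no such difference was found, at a mean of at least 10 TPM, where the largest ratio was 1.21 (Esrrb).

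Several genes ended at more than 1 place. Of 1996 genes with at least 2 features alone on the strand, 1505 had an end with a mean of 1 TPM or more, and for 1071 (71.2%) the most downstream end was the most abundant. The upstream extension reached exons of the same gene in 944 of the 1505 (62.7%), so that its level holds more than the end itself. In the 853 genes with 2 ends and a sum of at least 10 TPM, the downstream end held 82.8% of the TPM at the median, over 90% in 330 genes and under 10% in 64.

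Nedd4 ended downstream, with 2153 TPM there and 313 TPM upstream, so that the downstream end held 87.7%, 87.0% and 87.2% in the 3 libraries. Eif4b held 92.5%, 92.6% and 92.5% downstream. In Tfcp2l1 the downstream end, which has the AATAAA hexamer printed above, held 99.9% of the TPM at 741 TPM, beside 0.845 TPM at the upstream end, whose printed window has neither hexamer. Lars2 likewise gave 985 TPM downstream and 0.240 TPM upstream. Zfp106, a zinc finger gene, spread over 3 ends with 8.48%, 25.4% and 66.1% of its TPM from upstream to downstream.

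The order was the reverse in Eef2, where the upstream feature held 84.0%. Eif3a, an initiation factor subunit, held 66.1% upstream, and Hspa4, a chaperone, held 68.5% upstream (430 TPM, beside 198 TPM). In these 3 genes the upstream feature held 1028, 665 and 282 bases of exons of its own gene. The share of the downstream end was stable between libraries, with a median range of 1.72 percentage points, and it moved by over 20 points in 5 genes. In Thop1, a peptidase, the downstream end was at 44.0, 102 and 101 TPM and the upstream end at 61.4, 62.8 and 60.8 TPM.

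A poly(A) signal was sought as AATAAA or ATTAAA on the transcript strand in the last 50 bases of the annotated UTR, for the 7748 features whose end matched that of an annotated transcript. It was present in 4544 (58.6%, 95% Wilson interval 57.5 to 59.7). At 1 TPM or more in every library the share was 61.6% (60.0 to 63.1), under 0.1 TPM in every library it was 57.0% (54.7 to 59.2), and in the clear features at 100 TPM or more in every library it was 75.9% (70.3 to 80.7, 195 of 257). Among the 100 most abundant features, 25 of the 31 with a matched end had it (80.6%, 63.7 to 90.8). In genes with several ends the share was 58.1% at the most abundant end and 39.1% at the least abundant one. Lin28a, printed above, is an abundant end with neither hexamer in its last 30 bases. Intervals cover counting error only, and a missing hexamer says only that these letters are not in the window.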

How the data were processed

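RNA-seq libraries of WT cells were used. As the methods and file headers describe, the authors used BWA-MEM 0.7.15 for aligning read pairs (mm10), Picard against duplicates and StringTie 1.3.3 with a UCSC 3′UTR annotation extended by 2 kb, which gave the deposited TPM values and mean coverage per feature. Reads in features amounted to 2.27, 1.95 and 1.97 Gb in replicates 1, 2-3 and 4. At 1 TPM a feature held 1567 to 1770 aligned bases at the median, and at 0.1 TPM 152, so that lower levels rest on very little sequence. TPM were used as deposited.

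Features were named by GENCODE M21 (mm10), 7748 by an exact transcript end, 7279 by exon overlap and 588 not at all. Of several features of a listed gene, the most abundant was taken. Named were the 20 highest features, the highest, lowest and limiting genes of each list and family, the 5 features with the largest highest-to-lowest ratio per library at a mean of at least 10 TPM, and the 5 genes with the highest sum over several ends. Other genes were chosen after their values were seen. Members and lists were chosen with earlier results of these data known. With a single group, no test was made. Python 3 with pandas, numpy and scipy was used, and the statistics were tested on simulated data. Alternatives are given in the closing section.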

Additional observations from a re-analysis of the deposited data

How the results depend on the processing

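The number of features at 1 TPM or more in every library was 17549 with all deposited features and 5205 at 10 TPM. The share of the 100 most abundant features was 11.3% with all deposited features, 21.3% without opposite-strand overlap, 20.5% in the clear set, 12.8% for sums per gene and 31.1% per base of annotated UTR. At a limit of 0.1 TPM, 13 germ layer genes lay under it. The median CV was 0.125 with all deposited features, 0.0538 at a mean of at least 10 TPM, 0.102 at a mean of at least 0.1 TPM, and 0.0574 to 0.0650 with a library left out. Features over 2-fold numbered 6338 with all deposited features, 174 without opposite-strand overlap, 163 in the clear set, 77 at a mean of at least 10 TPM, 121 with 1 TPM added, and 136 to 169 with a library left out, where fewer libraries are compared. Ribosomal protein genes held 0.741% with all deposited features, 0.341% in the clear set, 0.748% for sums per gene and 1.68% per base of annotated UTR. The downstream end was the most abundant in 73.9% of genes at 10 TPM, 72.9% without opposite-strand overlap, 78.8% in the clear set with no exon of the same gene in the extension, and 71.0% to 71.3% with a library left out. A poly(A) signal was found in 61.6% within 100 bases and in 46.8% with AATAAA alone. The cause of these shifts was not tested. The count of pluripotency genes stayed within 1.5 times of 24 under each alternative tried. The clear set was chosen after seeing the data. With 3 libraries and few bases per feature, differences under 1 TPM were not resolved.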
